A study of Arabidopsis thaliana with 18 samples.

Results

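The class III peroxidases of Arabidopsis were followed through phosphate starvation and phosphate excess in root and shoot. The family was taken as 60 loci, each represented by 1 row of the array table. A row was found for 56 of the 60 loci, among 17618 loci with a row in all. The platform table named 51 of these rows, and the other 5 (AT1G05260, AT1G14540, AT3G49120, AT5G06720 and AT5G42180) were named only through the study's own lists of starvation-responsive genes, so that their change at P0 is not independent evidence. No row was found here for AT1G05240, AT1G05250, AT5G22410 (RHS18) and AT5G67400 (RHS19).

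The plants were Col-0 wild type seedlings, raised in hydroponic culture for 5 days in Murashige and Skoog medium with sucrose and then moved for 7 days to medium without phosphate (P0, 0 mM), with the control supply (P1.25, 1.25 mM) or with excess (P20, 20 mM). Roots and shoots were harvested apart, and each of the 6 groups had 3 arrays. The values are log2 levels, so that a difference of 1 is a 2-fold difference. A member was called in the P0 and tissue comparisons at an adjusted p under 0.1 and a change of more than 2-fold, and in the P20 comparisons and in the comparisons of an effect in root with the same effect in shoot at an adjusted p under 0.1 with any fold. All adjusted p-values come from limma with Benjamini-Hochberg adjustment over 38408 rows, and no exact test of a single gene could go below 0.1 with 3 arrays against 3. The study's methods describe the replicates as independent biological experiments.

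Class III peroxidases are secreted haem enzymes that plants carry as a large gene family. With hydrogen peroxide they oxidise phenolic compounds, which joins monolignols into lignin and cross-links extensins and other wall polymers. They can also generate reactive oxygen in the wall, and members are known from Casparian strip formation, vessel lignification, root hair growth and the oxidative burst of defence.

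The arrays differed in how closely they repeated each other. At P0 no array held more than 40.1% of the squared deviation of the peroxidases from their group means, whereas replicate 3 of each P1.25 and P20 group held between 52.3% and 64.2%. The counts at P0 and P20 are also given without these 4 outlying arrays. That fit was chosen after the values of these same members had been seen, so its counts are no independent check. Such shares compare arrays within a group only, and the spread itself also differed between groups. The standard deviation of PRX52 (AT5G05340) was 0.028 in P0 shoot, 0.26 in P1.25 shoot and 1.73 in P20 shoot. AT2G22420 went the other way in root, at 0.23 in P0 and 0.096 in P1.25. The fit took 1 spread per row for all 6 groups, so its p-values do not follow these differences. The labelled tissues carried their markers: all 7 root markers with a row were higher in root and all 6 leaf photosynthesis markers were lower in root at P1.25. The log2 difference between P0 and P1.25 in shoot had a median of -0.105 over all rows.

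In control plants the family belonged mainly to the root. Of the 56 members, 32 were higher in root than in shoot at P1.25, whereas 7.26% of all rows and 8.54% of the rows with 1 gene by the platform table were called higher. Only 3 members were lower in root, against 9.96% of all rows and 8.06% of the platform-named rows. The median difference over the members was 1.99, against 0.03 over all rows. In bulk tissue, fewer cells of a type and less RNA per cell cannot be told apart.

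Of the 12 wall and lignin peroxidases with a row, 7 were called higher in root and none lower, a share close to that of the whole family. RCI3 (AT1G05260, first described as a cold-inducible peroxidase) was 17.9-fold higher in root, with levels of 10.83, 10.57 and 10.10 in root and 6.31, 5.82 and 6.89 in shoot at P1.25 (adjusted p = 1.86e-07). PER64 (AT5G42180), which deposits lignin in the Casparian strip of the endodermis, stood at 8.52, 8.49 and 7.94 in root and 4.84, 4.08 and 5.39 in shoot. AT5G66390, needed for normal stem lignin, was 3.99 higher in root on the log2 scale, and AT4G33420, known from differentiating vessels, was 2.16 higher. The root and shoot arrays did not overlap for any of these 4 genes. PRX52 (AT5G05340) and PER4 (AT1G14540), both linked to stem lignin, were not called between the tissues, with log2 differences of -0.26 and 0.77.

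All 6 root hair members with a row were called higher in root. They included AT4G26010, which acts on root hair extensins, at 2.96 higher, and AT5G64100 at 3.33 higher on the log2 scale. AT5G39580 had the least support, since its difference of 1.58 (adjusted p = 0.0411) lost its call without P1.25 root replicate 3 or P1.25 shoot replicate 3 (adjusted p between 0.103 and 0.167). The 2 members known as targets of the root growth regulator UPBEAT1, AT4G11290 and AT5G17820, were higher in root by 1.95 and 3.54.

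The largest root excess was that of AT3G01190, with 9.55, 9.53 and 8.47 in root and 4.97, 3.58 and 5.64 in shoot at P1.25, a 21.8-fold difference (adjusted p = 1.57e-06). The 3 members that were lower in root were PRXCA (AT3G49110), a peroxidase of the defence oxidative burst, AT5G58390 and AT1G71695. PRXCA stood at 2.73, 2.39 and 5.69 in root and 7.89, 7.80 and 7.32 in shoot, and root replicate 3 was the one nearest to the shoot level. AT5G58390 had 4.13, 4.90 and 6.73 in root and 9.13, 8.89 and 9.53 in shoot, again with root replicate 3 nearest to the shoot level. On these 3 root arrays, in order, the 6 leaf markers had mean log2 levels of 4.06, 4.49 and 4.73. On the P1.25 shoot arrays they had 8.66, 8.77 and 7.64. In both tissues replicate 3 lay nearest to the other tissue. The same held at P20, with 4.09, 3.78 and 4.72 in root and 8.33, 8.23 and 7.33 in shoot. The root markers likewise were lowest in root and highest in shoot on replicate 3, at P1.25 and at P20. The bearing of this shift on the peroxidase values was not tested. AT4G21960 (PRXR1) kept a narrow range, between 11.77 and 12.52 on every array. Within it the P0 effects differed between the tissues, at -0.42 in root and 0.40 in shoot on the log2 scale.

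Phosphate starvation moved the family in both tissues, in different ways. In root, 15 of the 56 members were higher at P0 and 5 were lower. Over all rows 4.69% were called higher and 4.54% lower, and over the platform-named rows 4.98% and 2.44%. Among the 51 platform-named members, 12 were higher and 3 lower. The median over the members was 0.27, against -0.09 over all rows, and the changes ran from -2.64 to 5.37. Without the 4 outlying arrays, 18 members were higher and 8 lower in root. The shares of all rows in that fit, chosen after the values had been seen, were not counted. Without P1.25 root replicate 3 alone 17 were higher and 8 lower, and with no fold limit 17 were higher and 12 lower.

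**Figure D1:**
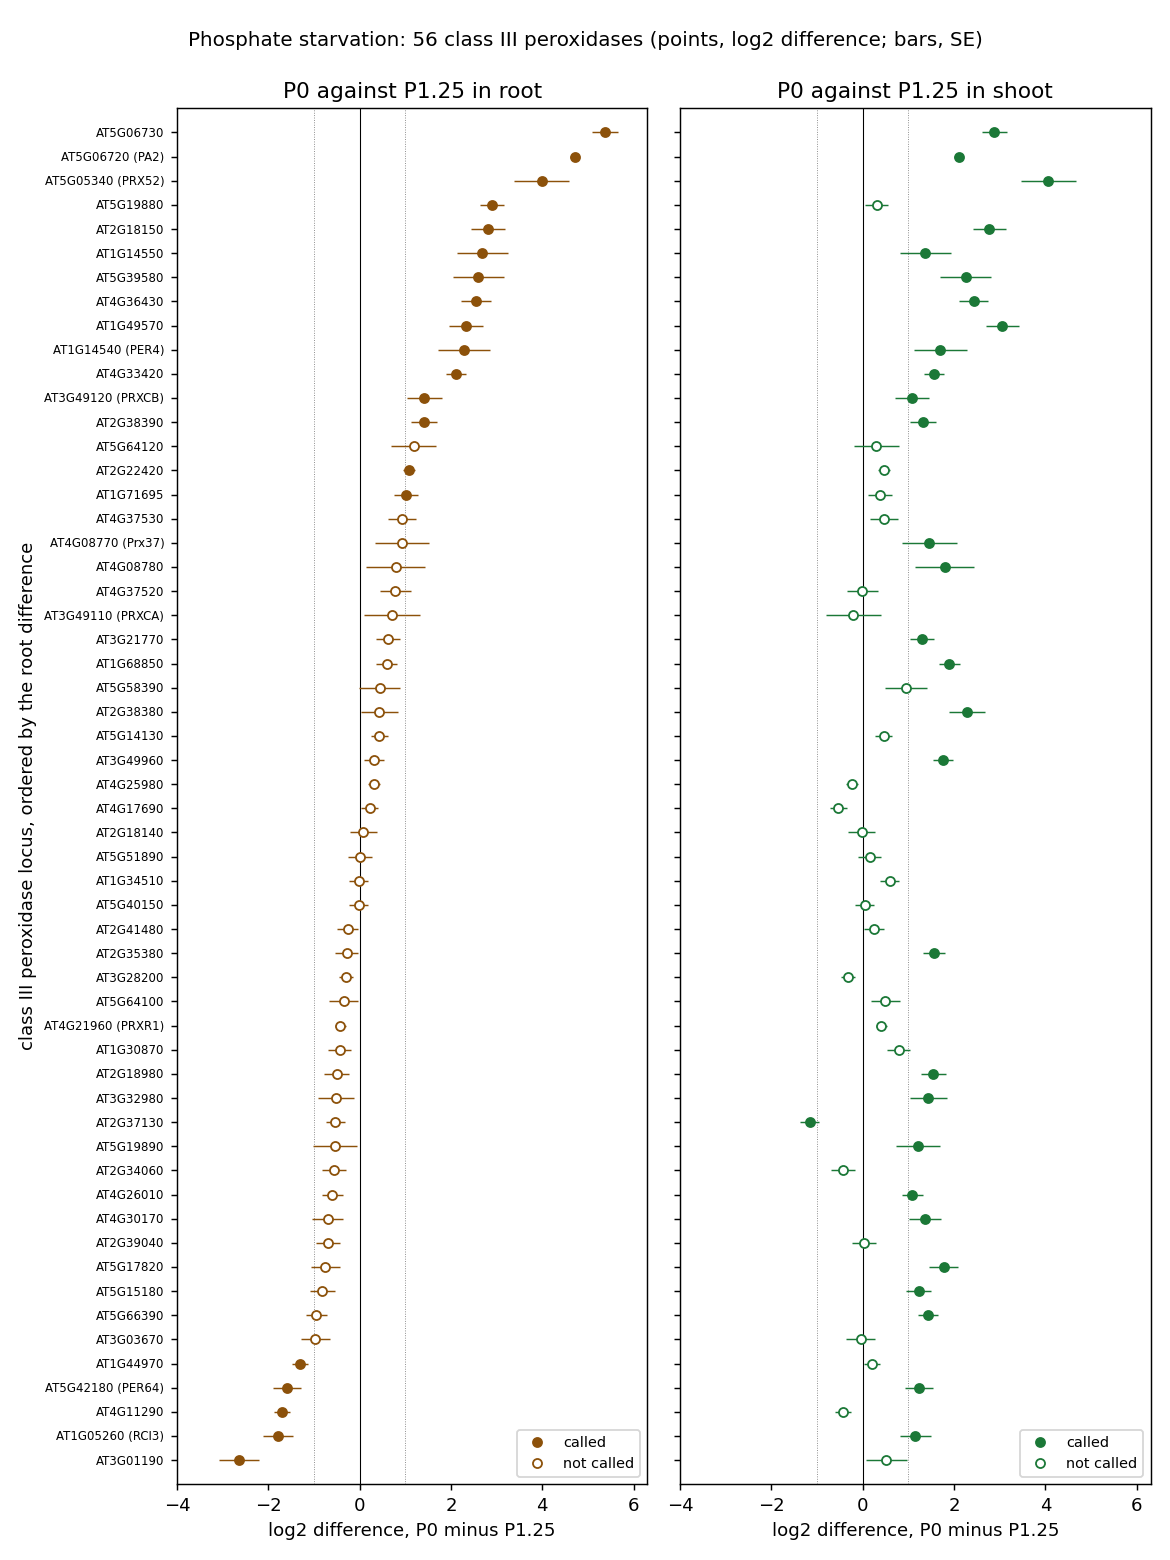
Log2 differences between P0 and P1.25 for the 56 peroxidases with a row, in root (left) and shoot (right), with bars giving the standard error of the fit; filled points were called, open points were not, and dotted lines mark a 2-fold change. The loci are ordered by the root difference, and most of the 5 loci at the bottom of the root panel lie to the right of 0 in the shoot panel.

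The strongest rises in P0 roots belonged to 2 adjacent genes and to PRX52. AT5G06730 stood at 11.07, 11.07 and 10.97 in P0 root against 5.82, 5.49 and 5.68 in P1.25 root, a 41.3-fold rise (adjusted p = 3.15e-08). Its neighbour PA2 (AT5G06720), a peroxidase linked to cell elongation, had 9.37, 9.27 and 9.19 in P0 root against 4.72, 4.52 and 4.47 in P1.25 root, a 26.1-fold rise (adjusted p = 8.86e-13). PRX52 had 9.36, 9.25 and 9.28 in P0 root against 5.12, 5.22 and 5.60 in P1.25 root, a 15.8-fold rise (adjusted p = 0.000316). The P0 arrays of these genes lay within 0.2 of each other and well above every control array.

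Of the 12 wall and lignin members, 4 rose and 3 fell in P0 root. Beside PRX52, the members that rose were PER4 by 2.29 ± 0.57 (log2 difference ± SE), AT4G33420 by 2.12 ± 0.22 and AT2G22420, a peroxidase of lignifying tissues, by 1.08 ± 0.13, which was 0.99 without P0 root replicate 1. The members that fell were RCI3, PER64 and AT1G44970, a peroxidase of anther cell walls. RCI3 had 8.69, 8.70 and 8.75 in P0 root against 10.83, 10.57 and 10.10 in P1.25 root, a 3.45-fold fall (adjusted p = 0.00151). PER64 had 6.55, 6.85 and 6.78 in P0 root against 8.52, 8.49 and 7.94 in P1.25 root, a 3.01-fold fall (adjusted p = 0.00219). For neither gene did the P0 and P1.25 root arrays overlap. AT5G66390 was 0.95 lower in P0 root (adjusted p = 0.00766), which is just short of 2-fold and was not called.

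Among the 3 defence members, PRXCB (AT3G49120), the near relative of PRXCA in the oxidative burst, rose in P0 root by 1.42 ± 0.38, and PRXCA was not called at 0.71 ± 0.61. The P0 root levels of PRXCA, 4.08, 4.34 and 4.51, lay between its scattered control root values. Of the 6 root hair members, AT5G39580 rose by 2.60 ± 0.56, and the other 5 had log2 differences between -0.60 and 0.32 without a call. Of the 2 UPBEAT1 targets, AT4G11290 fell by 1.70 on the log2 scale (adjusted p = 1.5e-05), with 7.23, 6.97 and 7.17 in P0 root against 8.94, 8.88 and 8.66 in P1.25 root. AT5G17820 had a difference of -0.75 and was not called.

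The members with no assigned role gave 9 rises and 1 fall in P0 root. The fall, of AT3G01190, was the deepest in the family, with 6.67, 6.49 and 6.45 in P0 root against 9.55, 9.53 and 8.47 in P1.25 root, a 6.24-fold difference (adjusted p = 0.000717). AT5G19880 rose 7.45-fold, with 6.69, 6.67 and 6.52 in P0 root against 3.79, 3.75 and 3.65 in P1.25 root. AT2G18150 rose by 2.81, AT1G14550 by 2.69, AT4G36430 by 2.55 and AT1G49570 by 2.33 on the log2 scale. AT1G71695, at 1.01, was the called member nearest to the 2-fold limit, and it lost the call without any 1 of 3 root arrays (P0 replicate 1, P1.25 replicate 1 or P1.25 replicate 2).

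All 5 members that were lower in P0 root were also called higher in root than in shoot at P20, as were 21 of the 36 members not called in P0 root, 6 of the 15 that rose, and 7.19% of all rows. The P20 tissue comparison was chosen after the values had been seen, because it shares no array with the starvation comparisons. Of the 7 root markers with a row, 6 were lower in P0 root, and the median over the list was -1.28. Their mean log2 level ran from 6.40 to 6.45 on the P0 root arrays and from 7.33 to 7.94 on the P1.25 root arrays. CASP1, CASP2 and CASP4, the scaffold proteins of the Casparian strip, fell by 1.34, 1.28 and 1.29 on the log2 scale. Most of these markers were named only through the study's starvation lists, and their part in the fall of the root peroxidases was not tested.

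In shoot, 29 of the 56 members were higher at P0 and 1 was lower. Over all rows 6.12% were called higher and 7.62% lower, and over the platform-named rows 5.98% and 4.07%. Among the 51 platform-named members, 24 were higher and 1 was lower. The median over the members was 1.08, against -0.10 over all rows. The mean was higher at P0 than at P1.25 in 46 members and lower in 10. Without the 4 outlying arrays, 30 members were higher and 1 was lower in shoot, again with no share of all rows counted in that fit.

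PRX52 gave the largest rise in P0 shoot. It stood at 9.61, 9.62 and 9.66 in P0 shoot against 5.56, 5.83 and 5.31 in P1.25 shoot, a 16.7-fold rise (adjusted p = 0.000183). AT1G49570 followed with 7.56, 7.46 and 7.53 in P0 shoot against 4.55, 4.47 and 4.36 in P1.25 shoot, an 8.33-fold rise (adjusted p = 2.98e-05). AT5G06730 had 7.95, 7.86 and 7.90 in P0 shoot against 4.87, 4.92 and 5.27 in P1.25 shoot, and PA2 had 6.72, 6.69 and 6.66 in P0 shoot against 4.62, 4.53 and 4.60 in P1.25 shoot. In these 4 genes every P0 shoot array lay above every control shoot array.

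Of the 12 wall and lignin members, 7 rose and none fell in P0 shoot. Beside PRX52, they were PER4 by 1.70 ± 0.57, AT4G33420 by 1.55 ± 0.22, Prx37 (AT4G08770), which cross-links wall phenolics, by 1.45 ± 0.60, AT5G66390 by 1.43 ± 0.23, PER64 by 1.23 ± 0.31 and RCI3 by 1.15 ± 0.33. RCI3 had 7.41, 7.52 and 7.54 in P0 shoot against 6.31, 5.82 and 6.89 in P1.25 shoot, and PER64 had 6.22, 6.04 and 5.72 in P0 shoot against 4.84, 4.08 and 5.39 in P1.25 shoot. AT5G51890, a vessel peroxidase, and AT5G64120, which restricts cell size and responds to wall damage, were not called, at 0.15 and 0.30. The call of Prx37 (adjusted p = 0.0810) was among the weakest in the family.

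Of the 3 defence members, PRXCB rose by 1.08 ± 0.38 and AT2G37130 fell. AT2G37130 was the only member called lower in P0 shoot, with 5.70, 5.44 and 5.70 in P0 shoot against 6.93, 6.47 and 6.92 in P1.25 shoot, a 2.24-fold difference (adjusted p = 0.000755). Of the 6 root hair members, AT5G39580 rose by 2.25, AT3G49960 by 1.76 and AT4G26010 by 1.08, and of the 2 UPBEAT1 targets AT5G17820 rose by 1.77. The 33 members with no assigned role gave 17 rises. Among them AT2G18150 rose by 2.77, AT4G36430 by 2.43, AT2G38380 by 2.27 and AT1G68850 by 1.90 on the log2 scale. Smaller rises were those of AT2G35380 (1.56), AT2G18980 (1.54), AT3G32980 (1.44), AT3G21770 (1.29) and AT5G15180 (1.22), whose root differences lay between -0.82 and 0.62 without a call.

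Some of the shoot calls hung on single control arrays. Without P1.25 shoot replicate 2, RCI3, PER64, AT4G26010 and AT4G30170 rose by 0.88 to 0.95 and fell short of 2-fold, and PRXCB kept a rise of 1.03 with an adjusted p of 0.106. PER4 had 1.35 without P1.25 shoot replicate 3 (adjusted p = 0.124). AT1G14550, Prx37, AT4G08780 and AT5G19890 lost their calls without each of several shoot arrays in turn, P0 and P1.25 alike, with adjusted p-values up to 0.297. The other 19 members that rose kept the call without any 1 array.

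Of the 29 members that rose in P0 shoot, 23 were also higher in root than in shoot at P20, a share of 79.3%. Of the 27 members that did not rise, 9 were, a share of 33.3%. These shares, against 7.19% of all rows, are a description only, since members were not sampled independently. Of the 7 root markers, 2 were called higher in P0 shoot (CASP1 at 1.59 and THAD1, a gene of root triterpene synthesis, at 1.80). The other 5 were not called, with CASP2 at 0.78, MRN1 at 0.51, EXPA7 at 0.40, CASP4 at -0.08 and NRT2.1 at -0.11, and the median over the list was 0.51. Their mean log2 level ran from 5.87 to 5.95 on the P0 shoot arrays and from 4.93 to 5.47 on the P1.25 shoot arrays. All 6 leaf photosynthesis markers fell in P0 shoot, with a median of -1.77, and their mean level ran from 6.13 to 6.28 at P0 and from 7.64 to 8.77 at P1.25. Of these, 1 root marker and 1 leaf marker were named by the platform table, and the others only through the study's starvation lists. Changes at P0 in markers so named are not independent evidence, and the part of either list in the peroxidase rises was not tested. PRX52, PA2, PER4, AT1G14550, PRXCB and AT5G39580 rose in P0 shoot without being called higher in root at P20.

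**Figure D2:**
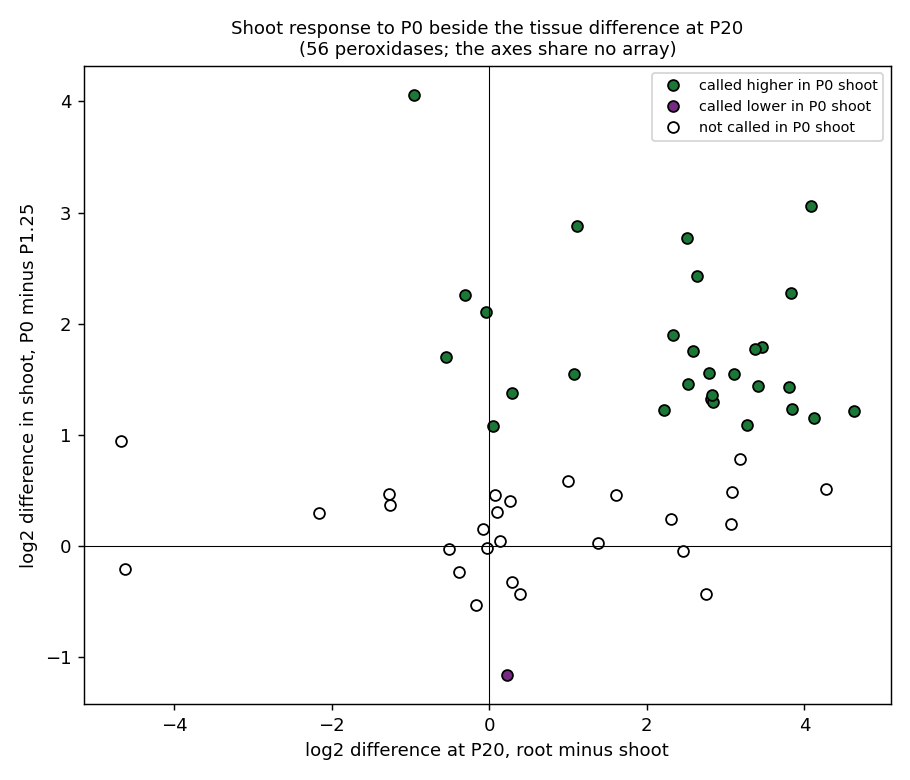
Each of the 56 peroxidases by its log2 difference between root and shoot at P20 (horizontal axis) and between P0 and P1.25 in shoot (vertical axis), with fill colour giving the call in P0 shoot. Of the 29 members called higher in P0 shoot, 23 were called higher in root at P20, and PRX52 is the point at the top left.

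Across the tissues, 12 members rose in both P0 root and P0 shoot, which is 12 of the 15 that rose in root and 12 of the 29 that rose in shoot. They were PRX52, PA2, PER4, PRXCB, AT1G14550, AT1G49570, AT2G18150, AT2G38390, AT4G33420, AT4G36430, AT5G06730 and AT5G39580. Of these, PA2, PER4 and PRXCB were named only through the study's starvation lists. Over all rows 4.69% were called higher in P0 root and 6.12% in P0 shoot. The share of all rows called higher in both was not counted, so the overlap is not shown to be particular to the family. A further 15 were called higher in shoot and not called in root, and 3 (AT1G71695, AT2G22420 and AT5G19880) were called higher in root and not called in shoot. In the same way, 3 were called lower in root and not called in shoot, and 1 was called lower in shoot and not called in root. These counts do not show a difference between the tissues, which was tested separately. That test was not called for AT1G71695 (0.64, adjusted p = 0.318) or AT2G37130 (0.64, adjusted p = 0.192). RCI3 and PER64 were the only 2 members called in opposite directions, lower in P0 root and higher in P0 shoot. Both were named only through the study's starvation lists, so these calls are not independent evidence. Without P1.25 shoot replicate 2 their shoot rises were 0.89 and 0.88 on the log2 scale (adjusted p = 0.0852 and 0.0453), under the 2-fold limit. The remaining 20 members were called in neither tissue.

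The difference between the tissues was tested itself, as the P0 effect in root minus the P0 effect in shoot. It was called for 24 members, higher in 6 and lower in 18, against 8.11% and 8.98% of all rows. Without the 4 outlying arrays the counts were 15 and 27. The shares of all rows in that fit were not counted, so the larger counts cannot be set against them. PA2, AT5G19880 and AT5G06730 responded more in root, by 2.60 ± 0.14, 2.59 ± 0.36 and 2.49 ± 0.39. AT3G01190, RCI3 and PER64 had the lowest values, at -3.15 ± 0.63, -2.94 ± 0.47 and -2.82 ± 0.44. PA2, RCI3 and PER64 were named only through the study's starvation lists, so their values are not independent evidence. Among the 51 platform-named members, 5 were called higher and 16 lower. PRX52, AT2G18150 and AT4G36430 had close to even effects in root and shoot, with differences of -0.08 ± 0.86, 0.04 ± 0.51 and 0.12 ± 0.46. For PRX52 that error is wide, and the data do not show that its response was the same.

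**Figure D3:**
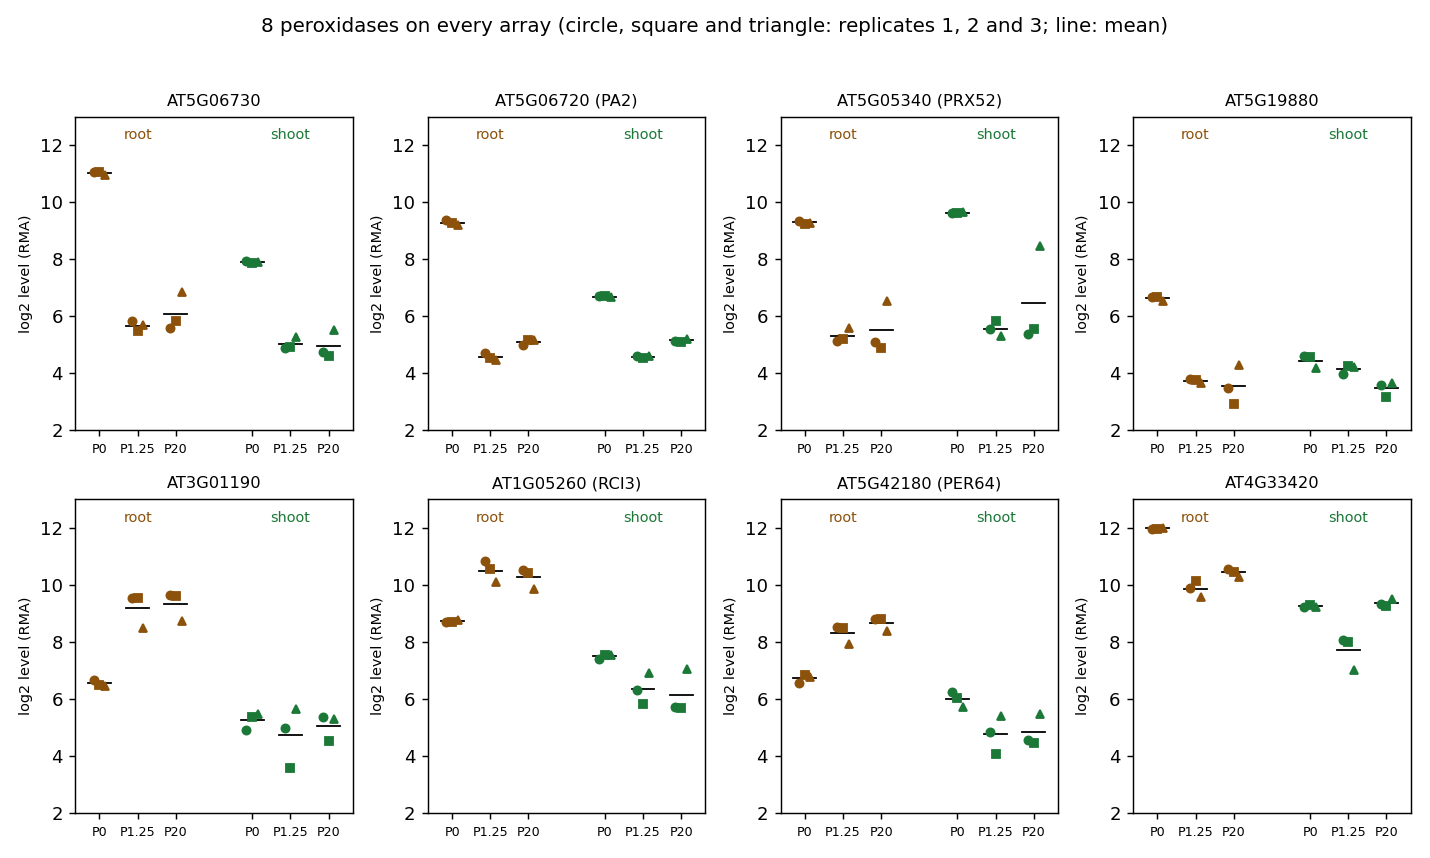
Log2 levels of 8 peroxidases on each of the 18 arrays, in root (left in each panel) and shoot (right) at P0, P1.25 and P20, with symbols marking replicates 1, 2 and 3 and lines giving the group means. PA2 and AT5G06730 rise at P0 in both tissues, AT5G19880 in root, and RCI3 and PER64 fall in P0 root and rise in P0 shoot.

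Some peroxidase genes lie next to each other on the chromosome, with no other protein-coding gene between them in the RefSeq annotation. There were 7 such pairs with a row for both genes, and 4 of the 7 had the same call in both genes in P0 root and 5 of the 7 in P0 shoot. A pair with no call in either gene counts as the same, which includes Prx37 and AT4G08780 in P0 root. The share with the same call among members that are not neighbours was not counted, so no excess among neighbours is shown. PA2 and AT5G06730 rose together in both tissues, as did PER4 and AT1G14550, and Prx37 and AT4G08780 rose together in P0 shoot. AT4G37520 and AT4G37530 were called in neither tissue.

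Other neighbours parted. AT2G18150 had 12.56, 12.59 and 12.39 in P0 root against 9.49, 9.32 and 10.29 in P1.25 root, whereas AT2G18140 beside it had 5.22, 5.32 and 4.93 in P0 root against 4.33, 5.59 and 5.30 in P1.25 root. The same pair parted in P0 shoot, at 2.77 for AT2G18150 and -0.03 for AT2G18140. AT5G19880 rose by 2.90 in P0 root while AT5G19890 had a difference of -0.54, and in P0 shoot the differences were 0.30 for AT5G19880 and 1.21 for AT5G19890, which was called. AT2G38390 rose by 1.41 in P0 root while AT2G38380 had 0.43 without a call. Neighbours are often close in sequence, and how far a probe set of one gene reads the other was not tested.

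**Figure D4:**
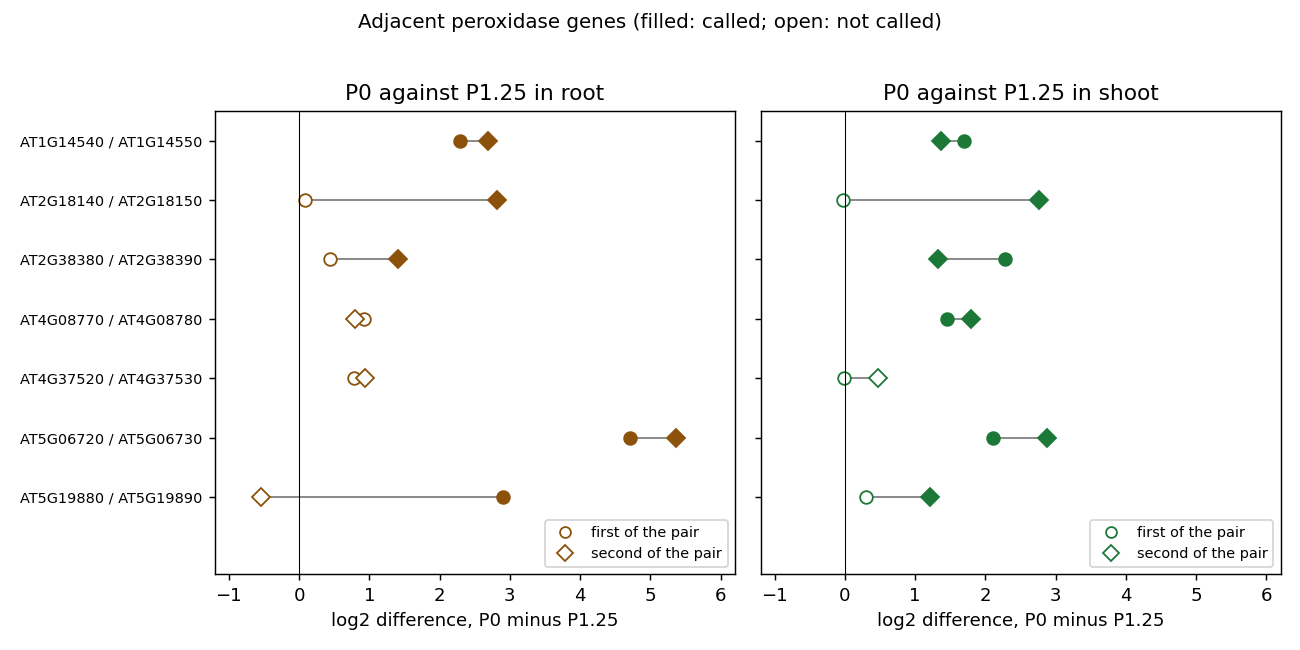
Log2 differences between P0 and P1.25 for the 7 adjacent gene pairs in root (left) and shoot (right), with a line joining the 2 genes of a pair. AT2G18140 and AT2G18150 are far apart in both tissues, and PER4 (AT1G14540) and AT1G14550 lie close together.

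Genes that make or use the hydrogen peroxide and the phenolic substrates of these enzymes were taken from fixed lists. Of 17 NADPH oxidases and superoxide dismutases, 5 had a row. In P0 shoot RBOHD and RBOHC, which feed the defence burst and root hair growth, rose by 1.37 and 1.02, and in P0 root RBOHG fell by 1.34 on the log2 scale. Of 11 catalases and ascorbate peroxidases, 3 had a row, and the thylakoid enzyme TAPX fell by 1.14 in P0 root and by 2.43 in P0 shoot. APX1 was 0.76 higher in P0 root and 0.98 higher in P0 shoot, and SAPX 0.38 and 0.58 higher. These differences were under the 2-fold limit and were not called. Of 23 genes of lignin synthesis, laccases and the Casparian strip, 10 had a row. In P0 root 2 of these rose, PAL2 by 1.35 and 4CL1 by 1.37, which act at the entry of the phenylpropanoid pathway, and 7 fell, among them the laccases LAC4, LAC11 and LAC17. In P0 shoot PAL2 and CASP1 rose and none fell. Of 15 root hair genes other than peroxidases, 3 had a row, EXPA7, EXPA18 and RBOHC. None was called in P0 root and RBOHC was called higher in P0 shoot, while the P0 effect in root minus that in shoot was called lower for all 3 (-1.04, -1.07 and -1.57). Most genes of these lists that had a row were named through the study's starvation lists, so that their calls at P0 are not independent evidence. Among the lignin, laccase and Casparian strip genes only HCT was named by the platform table. It was not called, at 0.94 in P0 root and 0.55 in P0 shoot. Over all rows 4.69% were called higher and 4.54% lower in P0 root, and 6.12% and 7.62% in P0 shoot.

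Excess phosphate changed few members. In P20 root no member was called, against 0.0469% of all rows, and 7 members had an unadjusted p under 0.05. In P20 shoot 1 member was called higher and none lower, against 0.0365% of all rows, and 9 members had an unadjusted p under 0.05. The difference between the P20 effects in root and shoot was called for no member, against 0.0104% of all rows, and 5 members had an unadjusted p under 0.05. The share of all rows with an unadjusted p under 0.05 was not counted, so the unadjusted counts cannot be set against it. The P0 and P20 comparisons share their P1.25 arrays.

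The member called was AT4G33420, the vessel peroxidase. It stood at 9.32, 9.27 and 9.50 in P20 shoot against 8.07, 8.01 and 7.01 in P1.25 shoot, a 3.17-fold rise (adjusted p = 0.0104). No P20 shoot array overlapped the controls, and control replicate 3 was the lowest. The adjusted p was 0.198 in a fit to the shoot arrays alone and 0.755 in a fit to the 6 arrays of these groups. In root it had 10.57, 10.46 and 10.29 at P20 against 9.87, 10.13 and 9.58 at P1.25, which was not called (adjusted p = 0.765).

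PA2 came close to a call in both tissues. It had 4.99, 5.18 and 5.15 in P20 root against 4.72, 4.52 and 4.47 in P1.25 root (log2 difference 0.53, adjusted p = 0.121), and 5.13, 5.11 and 5.20 in P20 shoot against 4.62, 4.53 and 4.60 in P1.25 shoot (0.56, adjusted p = 0.105). The arrays did not overlap in either tissue. AT1G49570 had 9.26, 9.27 and 10.11 in P20 root against 7.46, 7.99 and 7.76 in P1.25 root, a difference of 1.81 with an adjusted p of 0.181. AT5G39580 had 8.62, 8.46 and 10.68 in P20 shoot against 6.76, 7.29 and 5.70 in P1.25 shoot, a difference of 2.67 with an adjusted p of 0.190. In AT5G39580 replicate 3 of each group lay farthest out, upward at P20 and downward at P1.25.

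The 4 outlying arrays bore on many of the P20 differences. Without them, 4 members were higher and 4 lower in P20 root, against 0.935% and 1.68% of all rows. The higher ones were AT1G49570 by 1.54, AT4G36430 by 0.73, AT4G33420 by 0.51 and PA2 by 0.46, and the lower ones were PER4, AT4G37530, AT4G37520 and AT1G71695, between -0.97 and -0.43. In P20 shoot 5 were higher and 5 lower, against 1.48% and 1.62% of all rows. The higher ones were AT5G39580 by 1.52, AT4G33420 by 1.25, AT2G18980 by 0.77, AT3G28200 by 0.69 and PA2 by 0.55. The lower ones were AT4G08780, Prx37, PRXCB, AT1G14550 and AT1G30870, between -1.19 and -0.75. This fit has 2 arrays in each P1.25 and P20 group and was chosen after the values had been seen.

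The case of Prx37 shows the size of that dependence. Its P20 shoot arrays read 8.34, 7.98 and 11.32 against 9.39, 9.04 and 9.80 in P1.25 shoot, so that P20 replicate 3 lay above all controls and the other 2 lay below them. PRX52 had 5.39, 5.54 and 8.45 in P20 shoot against 5.56, 5.83 and 5.31 in P1.25 shoot, and only P20 replicate 3 lay above the controls (log2 difference 0.89, adjusted p = 0.728).

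**Figure D5:**
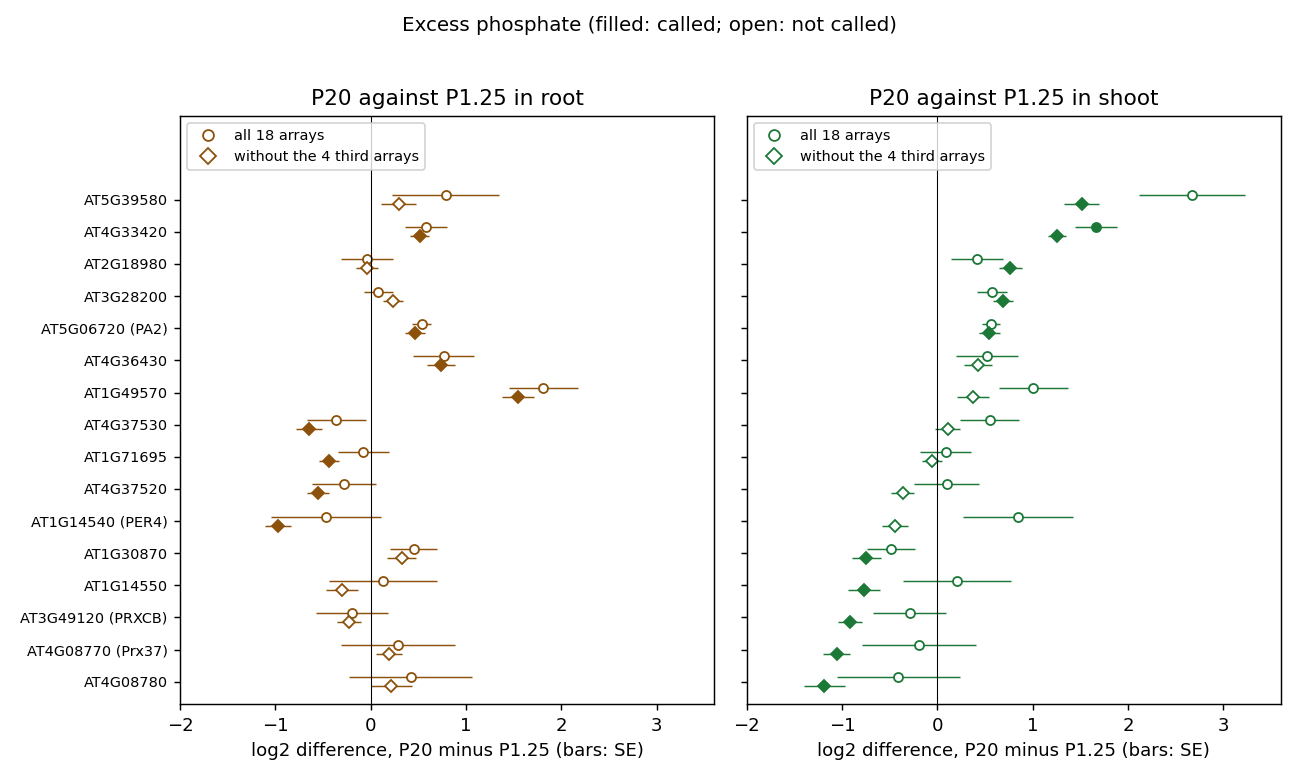
Log2 differences between P20 and P1.25 in root (left) and shoot (right) for the 16 peroxidases called in either tissue when replicate 3 of the P1.25 and P20 groups was left out, with all 18 arrays (circles) and without those 4 arrays (diamonds); bars are standard errors and filled symbols were called. AT4G33420 in shoot is the only filled circle.

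Of the 20 members called in neither P0 comparison, 13 had no assigned role, 3 were wall and lignin members, 3 were root hair members and 1 was a defence member. Their log2 differences at P0 stayed small for AT5G40150 (-0.02 in root and 0.04 in shoot), AT5G51890 (0.00 and 0.15) and AT2G18140 (0.08 and -0.03). AT5G64120 had 1.19 in root, with 9.08, 9.10 and 9.15 in P0 root against 8.07, 8.42 and 7.27 in P1.25 root, and missed the threshold (adjusted p = 0.102) although the arrays did not overlap. AT5G58390, the member with the highest shoot level relative to root beside PRXCA, had 10.10, 10.13 and 10.15 in P0 shoot against 9.13, 8.89 and 9.53 in P1.25 shoot, a difference of 0.94 (adjusted p = 0.132).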

How the data were processed

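RNA from roots and shoots of Arabidopsis seedlings was hybridised to Affymetrix AraGene 1.0 ST arrays, 18 in all. The authors summarised the arrays with RMA in Partek (6.6, per the labels) and deposited log2 levels, 1 value per transcript cluster and array. The genome build is not given in the sources used here, and arrays carry no depth: their number limits the precision. Rows were named through the platform table (16670 rows with 1 gene) and, where that named none, through loci in the study's tables (1119 rows). Symbols are from RefSeq or the study tables. The members, gene lists and tests were chosen with earlier results of these data known. A model of the 6 group means was fitted to all 38408 rows (limma 3.58.1, R 4.3.3) after the script was tested on simulated data. Every member could be named, the largest changes by array and the others by range and counts. Alternatives covered the error model, the arrays fitted, replicate block, dim or repeated rows, normalization and thresholds. Same-numbered deviations correlated at 0.136, 0.130 and 0.291 in the P20 and P1.25 shoot arrays, and at 0.0766, 0.127 and 0.225 in the root arrays. Arrays with different numbers were not compared, so these values do not show a pairing. The columns of the authors' own comparisons in the study tables were not used.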

Additional observations from a re-analysis of the deposited data

Results flagged for a closer look

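The following members had P0 effects that differed between root and shoot in a test of the difference itself, given as the log2 effect in root minus that in shoot. It was positive for AT5G06720 (2.60), AT5G19880 (2.59), AT5G06730 (2.49), AT4G17690 (0.76), AT2G22420 (0.62) and AT4G25980 (0.55). It was below -2 for AT3G01190 (-3.15), AT1G05260 (-2.94), AT5G42180 (-2.82), AT5G17820 (-2.52), AT5G66390 (-2.37), AT4G30170 (-2.06), AT2G18980 (-2.05) and AT5G15180 (-2.04). It lay between -2 and 0 for AT3G32980 (-1.96), AT2G35380 (-1.84), AT2G38380 (-1.84), AT4G26010 (-1.68), AT1G44970 (-1.49), AT3G49960 (-1.44), AT1G68850 (-1.31), AT4G11290 (-1.26), AT1G30870 (-1.22) and AT4G21960 (-0.83). Of these members, AT5G06720, AT1G05260 and AT5G42180 were named only through the study's starvation lists. Leaving out single arrays ended the call of AT4G17690, AT4G25980, AT2G22420 and AT2G38380, at adjusted p-values between 0.101 and 0.172. Single outlying values were not searched for gene by gene, since each group had 3 arrays.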

How the results depend on the processing

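The counts of members called in P0 root (20), P0 shoot (30) and root over shoot at P1.25 (35) stayed within 1.5 times the main count under each alternative that was run, and no member called in these comparisons or between the P0 effects turned its direction. The count lower in P0 root moved more, to 8 without P1.25 root replicate 3 and to 12 with no fold limit, against 5. Leaving out 1 array gave 19 to 25 members in P0 root, 21 to 28 in P0 shoot, 34 to 36 between the tissues, 21 to 26 between the P0 effects, 0 in P20 root, 1 to 4 in P20 shoot and 0 between the P20 effects. In P20 root, 2 members were called with array weights, and 1 each without moderation, with identical rows counted once and without the dimmest 25% of rows. In P20 shoot, 4 were called with array weights, 2 each under the other 3 settings just named, and 0 in fits to the arrays of 1 tissue or of the 2 groups. In P20 shoot the lone call became 2 without P1.25 shoot replicate 3 and 4 without P20 shoot replicate 3. Without replicate 3 of the P1.25 and P20 groups (chosen after seeing the data), 8 members were called in P20 root and 10 in P20 shoot. In that fit 42 were called between the P0 effects and 7 between the P20 effects. For these last 2 counts the share of all rows was not counted. The cause was not tested. With the replicate block, 25 members were called between the P0 effects against 24, and the block changed no other count. Some P20 differences that were not called turned sign. In root, AT1G71695 ran from -0.51 to 0.19 over the fits that each leave out 1 array. In shoot the same range was -0.80 to 0.79 for AT1G14550, -0.95 to 0.058 for PRXCB, -1.25 to 0.42 for Prx37 and -1.50 to 0.32 for AT4G08780. AT1G14550 also had -0.62 with array weights and -0.77 without the 4 outlying arrays. Of the calls in P0 shoot, 10 members lost theirs under at least 1 alternative, as did 2 in P0 root, 3 between the tissues and 5 between the P0 effects. Between the tissues AT1G71695 had -0.99 without P1.25 shoot replicate 1 and AT5G14130 had 0.94 without P1.25 shoot replicate 2, both short of 2-fold.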
